A study of Mus musculus with 11 samples.

Results

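Capillary-venous endothelial cells of the mouse brain were taken here as the endothelial barcodes with enough RNA of Cyp2e1, Ndnf or Unc13c, summed over the 3 genes. They held no RNA of the venous and arterial genes of the rule, and little or none of Plvap, which marks fenestrated vessels. Cells were chosen by their raw counts of unique molecular identifiers (UMIs, each standing for 1 captured RNA molecule). A barcode in which 500 or more genes were seen and 10% or fewer of the UMIs were mitochondrial was a member when Cldn5, Flt1 and Itm2a summed to at least 4 UMIs, P2ry12, Cx3cr1, Vtn and Myh11 to at most 2, and Cyp2e1, Ndnf and Unc13c to at least 3. It had to hold no UMI of Il1r1, Adgrg6 and Col6a6, none of Gkn3, Bmx and Sema3g, and at most 1 of Plvap. Of 66658 deposited barcodes 61625 were kept, 38627 of these were endothelial, and 4321 were members, which is 11.19% of the endothelial barcodes. Each of the 11 mice gave between 219 and 547 members.

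Single cells were sequenced from brain vessels of 6 R182C-TgN3 mice, a model of the small vessel disease CADASIL, and of 5 WT-TgN3 control mice, with 1 droplet library per mouse. Both genotypes are untreated and carry a human NOTCH3 transgene. It bears the R182C variant in the CADASIL mice and is wild type in the controls. The labels give each genotype its own transgenic line, and the level of human NOTCH3 RNA also differed between them, as given below. Genotype differences are thus differences between lines, in which variant and transgene level cannot be told apart. The R182C-TgN3 mice were 3 of 9 months and 3 of 6 months, and the WT-TgN3 mice were 3 of 6 months and 2 of 9 months, with 7 females and 4 males in all. Vessel fragments were pulled out on magnetic beads that bind CD31, which endothelium displays, so shares of cells follow this selection. The mice were prepared in 4 batches, numbered here by date, of which batch 1 held 2 mice of each genotype at 9 months, batch 2 held 1 R182C-TgN3 mouse at 9 months, batch 3 held 2 mice of each genotype at 6 months and batch 4 held 1 of each at 6 months. Every batch held 1 age, so age and batch cannot be told apart.

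Brain endothelium changes along the vessel from artery through capillary to vein, and the blood-brain barrier is built along all of it. Capillaries carry most of the transporters that bring glucose, amino acids, lactate and iron to the brain and remove waste, while venules are the main place where leukocytes attach and leave the blood. The capillary-venous segment lies between them, where capillaries drain into the first venules. Notch signalling supports arterial identity and the transcription factor Nr2f2 supports venous identity, and Wnt signalling through beta-catenin maintains the barrier.

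Among the 6 markers of the label, Car4, Tfrc and Slc22a8 were not used to choose the cells. Car4 is carbonic anhydrase 4, an enzyme on the surface of capillary endothelium, and lies on chromosome 11 from 84957786 to 84966044. Tfrc is the transferrin receptor that takes up iron, on chromosome 16 from 32608920 to 32632794, and Slc22a8 is an organic anion transporter, on chromosome 19 from 8591254 to 8611835, all 3 on the plus strand of mm10. Their promoters are shown because these genes were high together in the cells. For each gene the 250 bases before 1 RefSeq start, the one listed first (GRCm38.p6, plus strand), are printed from 5′ to 3′. They lie at chr11:84957504-84957753 for Car4, chr16:32608646-32608895 for Tfrc and chr19:8592932-8593181 for Slc22a8. The Slc22a8 window lies inside the gene interval given above, so it is not upstream of that whole interval. Capitals mark every match, on either strand, to CTTTGA or CTTTGT, the core bound by TCF and LEF factors of the Wnt pathway, or to CCGGAA, a core bound by ETS factors.
Car4 promoter: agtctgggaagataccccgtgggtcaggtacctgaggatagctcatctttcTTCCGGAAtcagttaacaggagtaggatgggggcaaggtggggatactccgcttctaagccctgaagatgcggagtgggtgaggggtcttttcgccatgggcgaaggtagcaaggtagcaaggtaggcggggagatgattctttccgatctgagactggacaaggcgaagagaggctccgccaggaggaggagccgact
Tfrc promoter: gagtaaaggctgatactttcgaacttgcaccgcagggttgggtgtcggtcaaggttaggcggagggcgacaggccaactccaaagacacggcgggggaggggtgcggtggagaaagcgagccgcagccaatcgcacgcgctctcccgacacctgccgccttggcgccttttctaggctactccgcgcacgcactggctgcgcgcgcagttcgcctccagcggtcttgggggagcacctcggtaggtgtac
Slc22a8 promoter: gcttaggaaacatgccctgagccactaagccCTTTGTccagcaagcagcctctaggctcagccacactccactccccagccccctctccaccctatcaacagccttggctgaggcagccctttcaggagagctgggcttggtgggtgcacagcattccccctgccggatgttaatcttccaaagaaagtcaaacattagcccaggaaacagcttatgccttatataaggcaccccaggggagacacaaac
The Car4 window held 2 matches to CCGGAA that overlap, 1 on each strand, 199 and 197 bases before the start. The Slc22a8 window held CTTTGT once, 219 bases before the start, and the Tfrc window held 0 matches. Over windows of the same length taken in the same way for 27025 genes, 14.05% held CTTTGA, 16.46% held CTTTGT and 12.22% held CCGGAA. Single matches are thus common, and a match is a description of letters and not a bound site.

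The 3 genes that chose the cells were uneven among them. Levels are given as UMIs of a gene scaled to a common total in each mouse (CPM, counts per 1e+06 UMIs of the cells summed), as mean ± SD over 11 mice unless another n is given. Ndnf, which encodes a secreted protein, stood at 693 ± 153 CPM, Unc13c, which encodes a synaptic vesicle priming protein in neurons, at 443 ± 66.8 CPM, and Cyp2e1, a cytochrome P450 enzyme, at 53.1 ± 17.5 CPM. Ndnf was detected in 88.15% of the members, Unc13c in 71.16% and Cyp2e1 in 9.19%. All 3 genes were detected in 5.67% of the members, 2 of them in 57.16% and only 1 in 37.17%. These values describe the rule and are no result. Of 11288 endothelial barcodes that reached 3 UMIs of the trio, 6225 were dropped for Il1r1, Adgrg6 or Col6a6, 703 for Gkn3, Bmx or Sema3g, and 39 for Plvap. Most barcodes with the trio thus also held RNA of the venous genes, and the cells described here are the ones without any. Cyp2e1 was lower in them than in cells of a venous gate, where it stood at 117 CPM, so Cyp2e1 alone does not set these cells apart from veins.

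3 other groups of endothelial barcodes served for comparison, all with at most 1 Plvap UMI. The capillary gate of 6722 barcodes held no UMI of any of the 9 genes for segments, counted as the trio, the venous set and the arterial set. The venous gate of 6024 barcodes held at least 2 UMIs of Il1r1, Adgrg6 and Col6a6 and none of the arterial set, and the arterial gate of 7081 barcodes held at least 2 of Gkn3, Bmx and Sema3g and none of the venous set. The gates were drawn from the same libraries, so every mouse gave cells to each. The capillary-venous cells had a median of 4841 UMIs, the capillary gate 3364.5, the venous gate 8376.5 and the arterial gate 5915. Since the gates count UMIs, a shallow barcode passes the capillary gate more easily and the venous gate less easily, and the comparisons were repeated with cells of 5000 to 10000 UMIs alone, here called matched depth, which kept 1671 of the capillary-venous cells.

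Car4, Tfrc and Slc22a8 were higher in the capillary-venous cells than in the cells of each of the other gates. Car4 ranged from 789 to 973 CPM over mice in the capillary-venous cells, from 305.5 to 469 in the capillary gate, from 394 to 734 in the venous gate and from 31 to 57.1 in the arterial gate. The capillary-venous range lay above all 3 others. The mean of Car4 was 906 ± 57.3 CPM against 418 ± 45.3 in the capillary gate (log2 fold change 1.10, SE 0.05, adjusted p = 2.371e-16) and 562 ± 105 in the venous gate (0.73, SE 0.06, adjusted p = 7.88e-11). Tfrc stood at 579 ± 123 CPM against 297 ± 47.4 and 348 ± 60.5, with log2 fold changes of 0.94 (SE 0.05) and 0.75 (SE 0.05), and it was higher in 11 of 11 mice in each pairing. Tfrc varied most over mice, from 370 CPM in the R182C-TgN3 9 months replicate 1 mouse to 863 CPM in the R182C-TgN3 6 months replicate 1 mouse. Slc22a8 was even across mice, from 366 to 435 CPM, against 209 ± 29.5 in the capillary gate (log2 fold change 0.90, SE 0.05) and 314 ± 37.9 in the venous gate (0.36, SE 0.04). The 3 genes were named for the label with these data known, so their high level describes the cells and does not test the label.

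**Figure D1:**
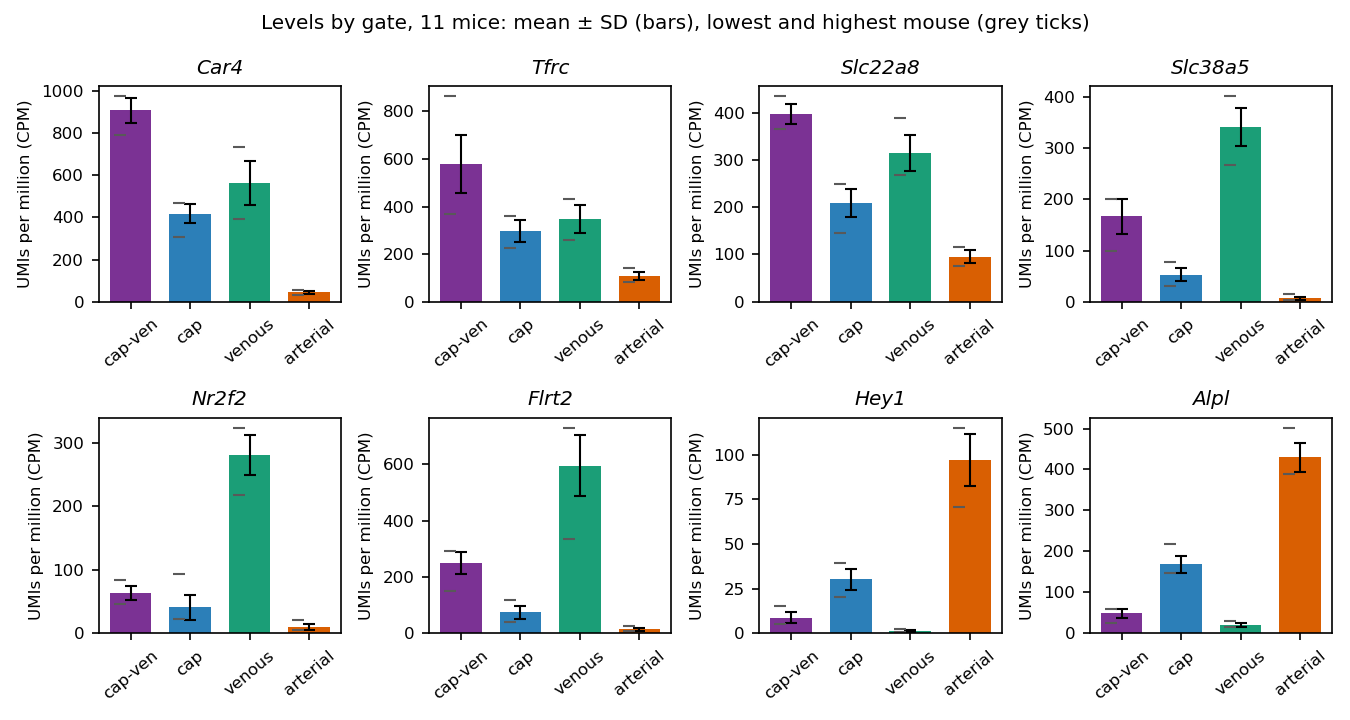
Levels of 8 genes in 4 gates, in CPM, as the mean over 11 mice with its SD as an error bar and the lowest and highest mouse as grey ticks. Car4, Tfrc and Slc22a8 peak in the capillary-venous gate (906, 579 and 397 CPM), Slc38a5, Nr2f2 and Flrt2 lie between the capillary and venous gates there, and Hey1 and Alpl lie between the capillary and venous gates on the falling side.

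Car4 moved step by step with the number of trio UMIs, also across the threshold, and some other genes did so less evenly. Endothelial barcodes with none of the venous or arterial set and 0 UMIs of the trio had 418 CPM of Car4, those with 2 UMIs, just outside the rule, had 750.1, those with 3 UMIs, just inside it, had 814, and those with 8 or more had 986. Slc38a5, a glutamine transporter known from venous endothelium, went from 52.8 CPM at 0 UMIs to 112 at 2, 137 at 3 and 188 at 8 or more. Alpl, alkaline phosphatase of the arterial side, went the other way, from 168 CPM at 0 to 80.8 at 2, 64.4 at 3 and 35.3 at 8 or more. Cdh13, the adhesion protein T-cadherin, went from 170 ± 49.7 CPM at 0 to 17.2 at 2, 9.66 at 3 and 2.59 at 8 or more, with 6.46 at 4 and 8.18 at 5 to 7. Tfrc went from 297 CPM at 0 to 528 at 3, 519 at 4 and 642 at 8 or more, and Slc22a8 from 209 to 371, 369 and 421. Mfsd2a changed little, with 148 CPM at 0, 178 at 5 to 7 and 163 at 8 or more. Vcam1 was uneven, with 27.7 CPM at 0, 16.4 at 4 and 43.6 at 8 or more. There were 1776 barcodes at 2 UMIs and 1146 members at exactly 3, so 26.52% of the members sat at the threshold, and cells on its sides differed little. The mean depth also went up along these steps, from 3674 UMIs a cell at 0 to 4319 at 2, 4637 at 3 and 7347 at 8 or more, and its part in the steps was not tested.

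**Figure D2:**
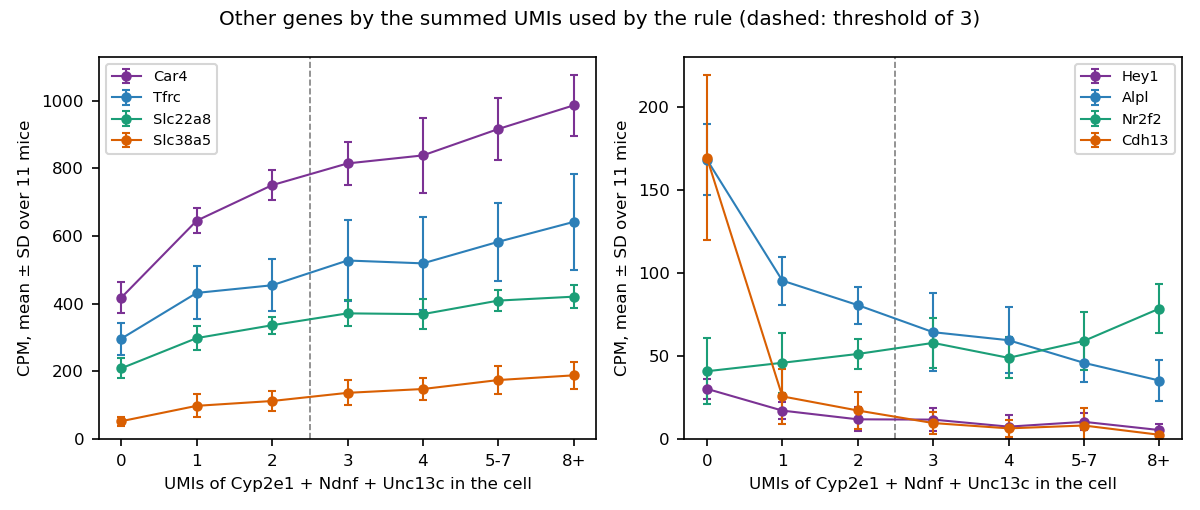
Level of other genes (CPM, mean ± SD over 11 mice) against the summed UMIs of Cyp2e1, Ndnf and Unc13c in the cell, with the rule's threshold of 3 as a dashed line. Car4 goes from 418 to 986 CPM and Cdh13 from 170 to 2.59 CPM from the lowest to the highest step, with no jump at the threshold.

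Across the transcriptome the capillary-venous cells differed from each neighbour in a large part of the genes tested. UMIs were summed per mouse and gate and tested with edgeR with the mouse as a block, leaving out the 17 genes the gates use, and a gene was called at a Benjamini-Hochberg adjusted p under 0.05. Against the capillary gate 1275 of 11082 genes were higher (11.5%) and 1560 lower (14.1%), and against the venous gate 2329 of 11292 were higher (20.6%) and 2246 lower (19.9%). With cells of 5000 to 10000 UMIs alone, 664 of 9386 genes tested were higher and 853 lower against the capillary gate. Against the venous gate 923 of 9550 were higher and 953 lower at that depth. Both comparisons use the same capillary-venous cells, so they are not independent of each other, and their values are given side by side. Genes that go with the gate genes were still tested, so part of the differences can follow from how the gates were drawn. The p-values treat the 11 mice as replicates and say that a difference between the gates recurred in them.

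The largest rises over the capillary gate included Sdk1, Wnt5a, Flrt2 and Slc38a5. Sdk1, the adhesion molecule sidekick 1, stood at 111 ± 38 CPM against 19.1 ± 12.8, a log2 fold change of 2.49 (SE 0.14, adjusted p = 6.974e-14), and at 351 CPM in the venous gate. Wnt5a, a ligand of non-canonical Wnt signalling, stood at 38.9 ± 6.13 CPM against 10.9 ± 6.55 (1.90, SE 0.13) and at 154 CPM in the venous gate. Flrt2, a ligand of the Unc5 guidance receptors, stood at 248 CPM against 75.3 (1.74) and at 595 in the venous gate, and Frmd5 at 835 CPM against 359.6 (1.20) and 1601. Each of these 4 genes was higher than in the capillary gate and lower than in the venous gate in 11 of 11 mice. Fam13a (1.40), Adgrl3 (1.33), Trpm6, a magnesium channel (1.23), Egflam (1.16), Lmntd1 (1.13) and Tmsb10, an actin-binding peptide (1.13), completed the 12 largest rises with Slc38a5 and Car4.

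Cdh13, Lypd1, S100a6 and Mgp were among the largest falls against the capillary gate, and each was highest in the arterial gate. Cdh13 stood at 6.5 ± 3.55 CPM against 170 ± 49.7 (log2 fold change -4.74, SE 0.12, adjusted p = 2.467e-20) and at 529 CPM in the arterial gate. Lypd1 stood at 2.09 CPM against 38.3 (-4.19) with 113 in the arterial gate, and S100a6, a calcium-binding protein, at 2.89 CPM against 57.1 (-4.17) with 176 in the arterial gate. Mgp, an inhibitor of calcification in artery walls, stood at 6.57 CPM against 99.5 (-3.59) with 1320 in the arterial gate, and Stmn2 and Emp1 had log2 fold changes of -2.91 and -2.85. Fbln2 (-3.50), Shtn1 (-2.92), Gask1b (-2.81) and Olfm5 (-2.80) were the other falls among the 12 largest, beside Igfbp2 and Ttr. The capillary gate left out barcodes with Gkn3, Bmx and Sema3g UMIs, and it still carried Cdh13, Lypd1, S100a6 and Mgp at levels between those of the capillary-venous and arterial gates. Igfbp2 had a log2 fold change of -4.40 and Ttr one of -3.09, and Ttr, which encodes the carrier transthyretin of the choroid plexus, stood at 126 ± 86 CPM against 2870 ± 3761, an SD above the mean. The 8 choroid plexus markers summed to 185 ± 98.7 CPM in the capillary-venous cells, 3272 ± 4180 in the capillary gate and 937 ± 1382 in the venous gate, none of them was at 0, and their part in these differences was not tested. At matched depth, Mgp stood at -1.79, Igfbp2 at -2.74 and Ttr at -1.56, each still called.

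The largest rises over the venous gate included Cxcl12, Fgf13, Cdkn2b and Gja1. Cxcl12, a chemokine of capillary and arterial endothelium, stood at 2094 ± 503 CPM against 394 ± 153 (log2 fold change 2.48, SE 0.06, adjusted p = 4.799e-21), and it stood at 3210 in the capillary gate. Fgf13 rose by 2.43, the cell cycle inhibitor Cdkn2b by 2.35, Gja1, which encodes connexin 43, by 2.17, the netrin receptor Unc5b by 2.15, the Notch ligand Dll4 by 1.99 and the retinol receptor Stra6 by 1.95. Plekhh2, Ivns1abp, Rad54b, Spaar and Pmaip1 rose by 2.14 to 2.31. Cxcl12 was higher than in the venous gate and lower than in the capillary gate in 11 of 11 mice.

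The largest falls against the venous gate included Ackr1, Lrg1, Tll1 and Lcn2. Ackr1, a receptor of venules that binds chemokines, stood at 0.148 CPM against 38.4 ± 34.4 (log2 fold change -8.07, SE 0.23, adjusted p = 6.041e-20), Lrg1 at 0.247 CPM against 51.8 (-7.34) and the protease gene Tll1 at 0.351 CPM against 54.2 (-7.27). Lcn2, an iron-binding acute phase protein, stood at 2.85 CPM against 120 (-5.02) and Ptgs2, the cyclooxygenase of inflammation, at 12.7 ± 5.65 CPM against 161 ± 53.4 (-3.61). Atp8b1, Lhx6, Ifitm1, Samd5, Nkd2, Ppfia2 and Ch25h completed the list, with log2 fold changes of -4.74 to -3.75. Ackr1 and Lrg1 were also lower than in the capillary gate, where they stood at 8.65 and 6.94 CPM (-5.44 and -3.96). At matched depth this fall was not called for Lrg1 (-2.63, adjusted p = 0.101 in edgeR) and Ackr1 gave no value.

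Venous zone genes were mostly higher than in the capillary gate and lower than in the venous gate. The choice of cells bears on this. The capillary-venous cells held no UMI of Il1r1, Adgrg6 and Col6a6 and the venous gate at least 2. Most barcodes with the trio also held RNA of that set, and the capillary gate held no trio UMI. Genes that go with these sets would differ this way by the gates alone, so the values describe the gates. The zone lists, like the others below, hold genes known for a role and were chosen with earlier results of these data known. Each count with all cells is read beside the percentages above and the median over all genes tested. That median was a log2 fold change of -0.009 against the capillary gate and 0.016 against the venous gate. Counts at matched depth, here and below, are read beside the calls over all genes at that depth. These were 664 higher and 853 lower of 9386 against the capillary gate, and 923 and 953 of 9550 against the venous gate. Of 18 venous zone genes tested against the capillary gate 11 rose and 5 fell, with a median of 0.69, and against the venous gate 1 rose and 17 fell, with a median of -1.96. Nr2f2 stood at 63.4 CPM, against 40.9 in the capillary gate (log2 fold change 0.74, higher in 10 of 11 mice) and 281 in the venous gate (-2.13). Vwf, von Willebrand factor, stood at 161 CPM against 99 (0.76) and 855 (-2.36), and the leukocyte adhesion molecules Icam1 and Vcam1 at 115 and 34 CPM against 67.1 and 27.7 in the capillary gate (0.85 and 0.65) and 576 and 421 in the venous gate (-2.29 and -3.58). Slc38a5 ranged from 99.1 to 201 CPM over mice, above the 29.8 to 78 of the capillary gate and below the 267 to 401 of the venous gate (log2 fold changes 1.68, SE 0.07, and -1.02, SE 0.06), with no overlap.

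Of 18 arterial zone genes tested against the capillary gate 0 rose and 15 fell, with a median of -1.45, and of 15 tested against the venous gate 7 rose and 4 fell. Hey1, a transcription factor induced by Notch, stood at 8.73 CPM against 30.3 in the capillary gate (-1.84), 1.22 in the venous gate (2.75) and 97.1 in the arterial gate. Its range over mice, 5.02 to 15.2 CPM, overlapped with none of the other gates. Alpl stood at 48.4 CPM against 168 (-1.76) and 21.2 (1.25), and Efnb2, the arterial ligand ephrin-B2, at 24.1 CPM against 66 (-1.43) and 13.1 (0.91). Of 11 capillary zone genes 8 rose and 2 fell against the capillary gate, with a median of 0.28, and 11 rose and 0 fell against the venous gate, with a median of 0.75. The 2 that fell were Cxcl12 (-0.64) and Rgcc (-0.69), a cell cycle regulator. At matched depth, 11 of 15 venous zone genes rose and 0 fell, and 11 of 15 arterial zone genes fell against the capillary gate, and 16 of 17 venous zone genes fell against the venous gate.

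**Figure D3:**
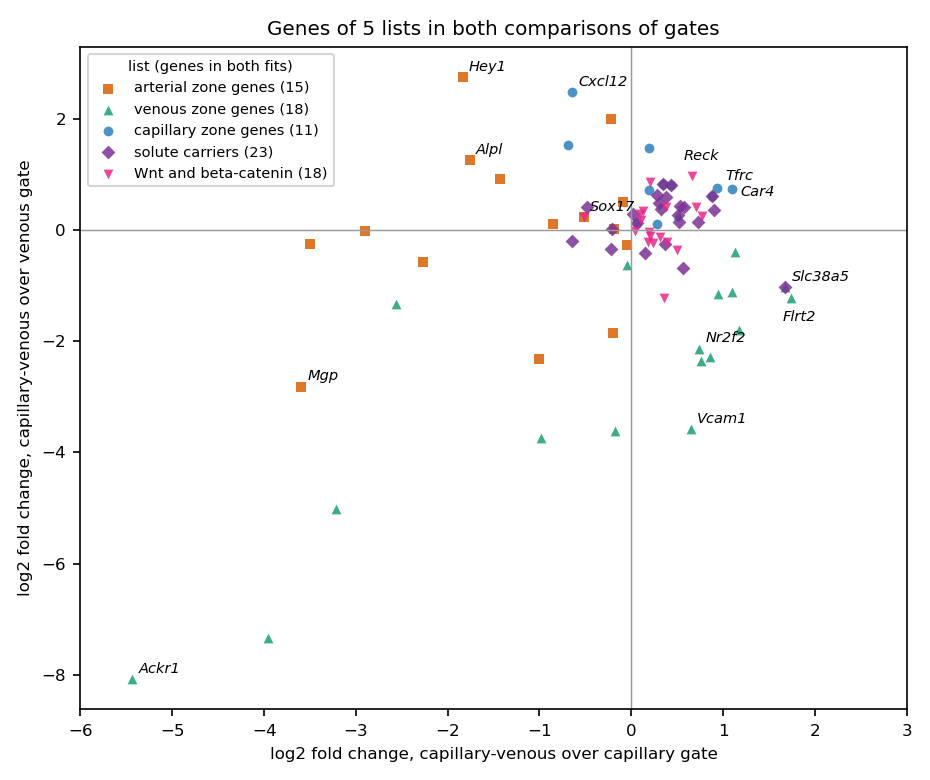
Log2 fold change of the capillary-venous cells over the capillary gate (x axis) and over the venous gate (y axis) for genes of 5 lists, 1 point a gene, with chosen genes named. Venous zone genes such as Nr2f2 (0.74 and -2.13) lie at the lower right, arterial zone genes such as Hey1 (-1.84 and 2.75) at the upper left, and Car4 (1.10 and 0.73) and Tfrc (0.94 and 0.75) at the upper right, and both axes use the same capillary-venous cells.

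Transporters of the barrier were higher in the capillary-venous cells than in either neighbour for most of the list. Of 23 solute carriers tested, 16 were higher and 4 lower than in the capillary gate (median 0.37), and 16 were higher and 4 lower than in the venous gate (median 0.29). Slc16a1, which carries lactate and ketone bodies, ranged from 427 to 636 CPM over mice and averaged 534 ± 65.4 against 288 ± 54.3 and 358 ± 63.5 (log2 fold changes 0.88 and 0.61). Slc7a5, the large neutral amino acid transporter, stood at 575 ± 74.8 CPM against 422 ± 70 and 336 ± 66.5 (0.44 and 0.81), and Slco1c1, the thyroxine transporter, at 1637 CPM against 1283 and 944 (0.34 and 0.82). Both were higher than in each neighbour in 11 of 11 mice. Slco1a4, an organic anion transporter (0.51 and 0.26), Slc38a3, a glutamine transporter (0.53 and 0.42), and Slc7a1, a cationic amino acid transporter (0.58 and 0.42), were higher than in both gates as well. The glucose transporter Slc2a1 was nearly level, at 961 CPM against 912 (0.06, not past the threshold) and 900.0 (0.12, but 0.09 and not called with cells of 5000 to 10000 UMIs), and was highest in the arterial gate at 1256 CPM. Slc6a6, the taurine transporter, was lower than in both, at 1515 CPM against 1754 (-0.23) and 1952 (-0.34). With cells of 5000 to 10000 UMIs, 16 of 23 rose and 3 fell against the capillary gate and 13 rose and 4 fell against the venous gate.

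Mfsd2a, a lipid transporter that restrains transcytosis, stood at 169 ± 31 CPM against 148 ± 29.7 in the capillary gate (0.19) and 61.1 ± 16.4 in the venous gate (1.47). Of the ABC efflux pumps, Abcb1a, which encodes P-glycoprotein, was higher than in the capillary gate (0.28) and at -0.01 against the venous gate, where it did not pass, and Abcg2 was higher than in the capillary gate (0.34). Against the venous gate Abcg2 had 0.20, which went to 0.01 with cells of 5000 to 10000 UMIs (adjusted p = 0.889 in edgeR). Of 13 tight junction genes 5 rose and 1 fell against the capillary gate and 7 rose and 3 fell against the venous gate, with Ocln, occludin, at 0.29 and 0.23. Of the basement membrane and matrix genes 5 of 20 rose and 11 fell against the capillary gate, and 14 of 18 rose and 1 fell against the venous gate, with a median of 0.37. Nid1, nidogen, rose by 0.38 and 1.12. Htra1, a protease gene mutated in another inherited small vessel disease, was 1.42 higher than in the venous gate and 0.02 against the capillary gate, where it did not pass.

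Of 16 iron handling genes 6 rose and 3 fell against the capillary gate, and 3 rose and 10 fell against the venous gate. At matched depth, 4 of 14 rose and 2 fell against the capillary gate, and 2 of 16 rose and 4 fell against the venous gate. Steap3, a ferrireductase of endosomes, stood at 26.4 CPM against 14.3 (0.85) and 19.6 (0.48). Slc40a1, the iron exporter ferroportin, stood at 464 CPM against 277 (0.73) and 426 (0.15), and the second difference was 0.12 and not called at matched depth (adjusted p = 0.0779 in edgeR). The storage gene Fth1, ferritin heavy chain, was lower than in both (-0.51 and -1.04). The 5 erythroid markers, which bear on a list of iron genes, summed to 8025 ± 4921 CPM in the capillary-venous cells, 7524 ± 5208 in the capillary gate and 3816 ± 2818 in the venous gate, none of them at 0. At matched depth 0 of the 5 rose and 4 fell against the capillary gate (median -1.04), and 5 rose and 0 fell against the venous gate (3.64). Their part in the differences of the iron genes was not tested.

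Genes of the Wnt pathway were mostly higher than in the capillary gate. Of 18 tested 14 rose and 1 fell, with a median of 0.22, and against the venous gate 9 rose and 7 fell. Reck, a co-receptor for Wnt7 ligands, stood at 179 ± 40.6 CPM against 113 ± 25.7 (0.66) and 92.2 ± 19.3 (0.96), and the feedback genes Apcdd1 at 434 ± 29.7 CPM against 263 ± 37.4 (0.71) and 332 ± 38.4 (0.41), Nkd1 at 199 CPM against 115 (0.77) and 170 (0.26) and Axin2 at 117 CPM against 89.3 (0.38) and 87.8 (0.41). Reck and Apcdd1 were higher than in each neighbour in 11 of 11 mice. Notum, a secreted enzyme that inactivates Wnt ligands, rose by 0.20 and 0.86. The transcription factors Lef1 and Tcf7l1 had log2 fold changes of 0.31 and 0.35 over the capillary gate and of -0.12 and -1.22 against the venous gate. At matched depth the call was lost over the capillary gate for Tcf7l1 (0.19, adjusted p = 0.335 in edgeR) and Notum (0.28, adjusted p = 0.0979), and against the venous gate for Lef1 (-0.07, adjusted p = 0.195). In the fit with all cells Ctnnb1, beta-catenin itself, and the co-receptor Lrp6 stood at 0.09 and 0.04 against the capillary gate and did not pass. Sox17, the only one that fell against the capillary gate (-0.52), is a transcription factor of arterial endothelium. With cells of 5000 to 10000 UMIs 9 of 18 rose and 1 fell against the capillary gate, and 8 rose and 4 fell against the venous gate.

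Most immediate early and heat shock genes were lower than in the capillary gate. Of 28 immediate early and heat shock genes, which respond quickly to handling, 0 rose and 27 fell against the capillary gate (median -0.36), and 2 rose and 25 fell against the venous gate (median -0.58). Fos, an immediate early transcription factor, ranged from 603 to 1654 CPM over mice against 1199 to 3159 in the capillary gate and 1441 to 3017 in the venous gate, ranges that overlap, and was lower in 11 of 11 mice in each pairing (-0.86 and -1.06). With cells of 5000 to 10000 UMIs 25 of 28 fell against the capillary gate, and against the venous gate 9 of 27 fell and 3 rose, with a median of -0.05. Of 21 interferon genes 2 rose and 6 fell against the capillary gate, and 12 rose and 6 fell against the venous gate (median 0.19; 8 and 4 at matched depth). Of 14 antigen presentation genes 0 rose and 2 fell, and 0 rose and 11 fell. Among 75 nuclear genes of oxidative phosphorylation 2 rose and 18 fell against the capillary gate and 39 rose and 4 fell against the venous gate, and with cells of 5000 to 10000 UMIs these counts were 3 and 0, and 2 and 3, so most of those calls did not appear at matched depth.

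Markers of other brain cells were present in every gate. The 12 microglial markers summed to 650 ± 196 CPM in the capillary-venous cells, 822 ± 307 in the capillary gate and 413 ± 110 in the venous gate, and 9 of the 10 tested fell against the capillary gate while 10 of 10 rose against the venous gate. At matched depth 0 of 9 and 2 of 9 were called. Marker sums in the capillary-venous cells were 45.6 CPM for pericytes, 27.7 for smooth muscle, 63.5 for astrocytes, 18.5 for neurons, 16.6 for oligodendrocytes and 99 for fibroblasts, with no listed marker at 0. Of the cells 110 (2.55%) were marked as likely doublets by simulation, against 5.54% of all kept barcodes, and they were kept in the main analysis.

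The share of endothelial barcodes that were capillary-venous differed between the genotypes by less than its spread over mice. In the R182C-TgN3 mice the lowest share was 7.55%, the highest 16.64% and the mean 11.4% ± 3.61 (SD, n = 6), and in the WT-TgN3 mice the shares were 9.36%, 11.62%, 12.22%, 13.08% and 12.25%, with a mean of 11.7% ± 1.41 (SD, n = 5). The WT-TgN3 range lay inside the R182C-TgN3 range. The difference was -0.314 percentage points (2-sided exact permutation test, p = 0.857, where the design allows a p as low as 0.00433). Within batch 1 the means were 12.8% for R182C-TgN3 and 12.7% for WT-TgN3, in batch 3 11.3% and 10.5%, and in batch 4 10.6% and 12.2%, while batch 2 held no control mouse. With every cell thinned to 3000 UMIs, which left out 269 R182C-TgN3 and 407 WT-TgN3 members that were shallower, the shares were 10.6% and 10.6% (exact permutation p = 1.0). The direction turned without any of 4 mice, and the difference then lay between -1.36 and 0.454 points over the 11 mice left out in turn. Over all endothelial barcodes, Ndnf averaged 258 CPM in the R182C-TgN3 mice and 260.2 CPM in the controls, Unc13c 166 and 182.2, and Cyp2e1 55 and 41, with exact permutation p-values of 0.952, 0.524 and 0.294, and none of the 3 passed this test.

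**Figure D4:**
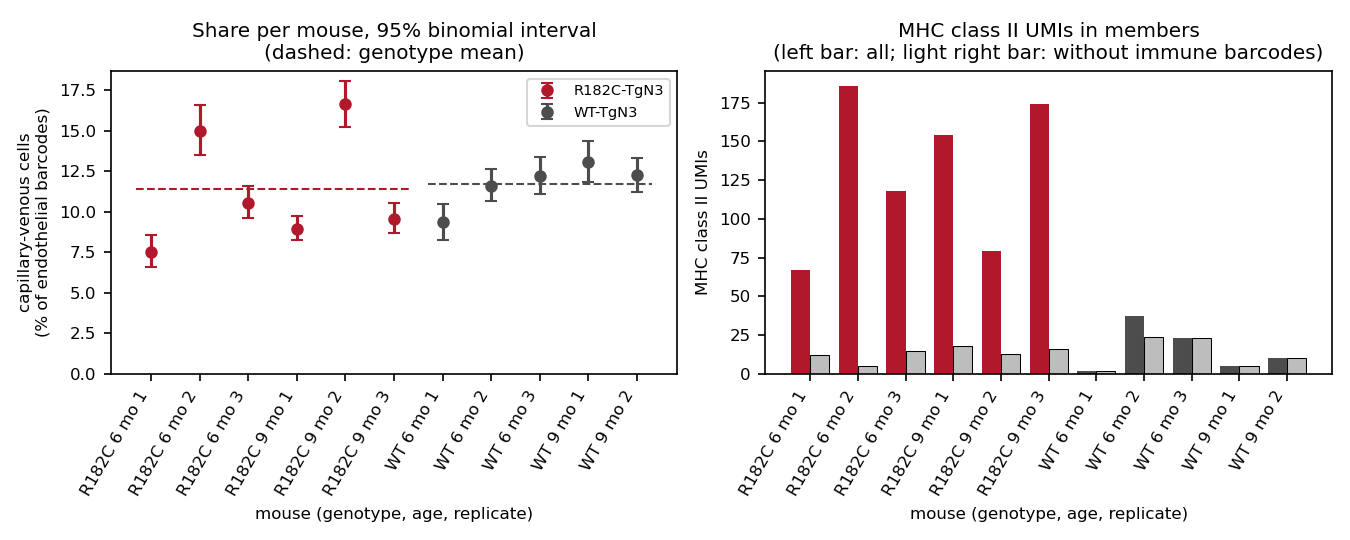
Left, capillary-venous cells as a percentage of endothelial barcodes in each mouse with 95% binomial (Clopper-Pearson) intervals, which cover counting error only, and the genotype mean as a dashed line, 11.4% for R182C-TgN3 and 11.7% for WT-TgN3. Right, UMIs of H2-Aa, H2-Ab1, H2-Eb1 and Cd74 in the capillary-venous cells of each mouse, with all cells and without 20 immune barcodes, where in the R182C-TgN3 mice the left bars reach from 67 to 186 and the light right bars stay at 5 to 18.

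Between the genotypes, 4 genes were called in the capillary-venous cells, all higher in R182C-TgN3 mice (0.0413% of 9696 genes tested), and 0 were lower (0.0%). At an unadjusted p under 0.05 there were 270 genes, and DESeq2 called 3. The 4 genes present antigen on MHC class II molecules. H2-Aa stood at 8.84, 4.39, 12.4, 17.2, 17.8 and 5.9 CPM in the R182C-TgN3 mice and at 0, 1.04, 1.26, 0 and 0.367 CPM in the WT-TgN3 mice. The groups did not overlap, and the log2 fold change was 4.14 (SE 0.57, adjusted p = 0.00744). H2-Eb1 averaged 12.3 ± 4.91 CPM (SD, n = 6) against 2.11 ± 0.701 (n = 5; log2 fold change 2.56, adjusted p = 0.0116), Cd74, the invariant chain, 29.8 ± 15.7 against 3.51 ± 4.06 (3.03, adjusted p = 0.0268), and H2-Ab1 11.1 ± 6.46 against 0.811 ± 1.04 (3.53, adjusted p = 0.0497).

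A few barcodes carried most of these UMIs. The 4 genes had 855 UMIs in all 4321 cells, and 711 of them (83.2%) lay in 11 barcodes with 10 or more each, 10 of R182C-TgN3 origin and 1 of WT-TgN3 origin. All 11 also held at least 3 UMIs of the immune genes Cd79a, Cd79b, Ms4a1, Igkc, Ighm, Lyz2, Cd52 and Ptprc, 7 with B cell genes and 3 with Lyz2 of myeloid cells. In all, 20 barcodes reached that immune count, 16 among 2298 R182C-TgN3 cells (0.696%) and 4 among 2023 WT-TgN3 cells (0.198%). Without these 20, a choice made after the genes were seen, 79 UMIs remained in the R182C-TgN3 mice, 64 remained in the controls, and 0 genes were called. The calls were also gone after likely doublets were removed. The count depended on single mice as well, with 0 genes called without the WT-TgN3 9 months replicate 2 mouse, 1 without the R182C-TgN3 6 months replicate 3, the WT-TgN3 6 months replicate 1 or the WT-TgN3 9 months replicate 1 mouse, and 2 without the R182C-TgN3 9 months replicate 3 or the R182C-TgN3 6 months replicate 2 mouse. The 8 markers of lymphocytes and granulocytes summed to between 2.04 and 23.5 CPM (median 10.2) in R182C-TgN3 mice and to between 1.39 and 11.1 CPM (median 2.56) in the controls.

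Car4, Tfrc and Slc22a8, the markers that the rule does not use, showed no called difference between the genotypes. Car4 ranged from 789 to 951 CPM (median 904) in R182C-TgN3 mice and stood at 969, 943, 828, 973 and 912 CPM in the control mice, which gave a log2 fold change of -0.01 (SE 0.09). The log2 fold changes were 0.14 (SE 0.15) for Tfrc and 0.00 (SE 0.08) for Slc22a8, with adjusted p = 0.9999 for all 3 in edgeR. Slc38a5 ranged from 99.1 to 201 CPM (median 172) in R182C-TgN3 mice and from 175 to 193 CPM in the control mice, with -0.18 (SE 0.15). Cxcl12 averaged 2312 ± 568.2 CPM against 1832 ± 267, with 0.39 (SE 0.16), and did not pass. Among the lists, 3 of 14 antigen presentation genes were called, as above, and 0 in each of the others, among them 23 solute carriers (median log2 fold change 0.00), 18 Wnt genes (0.02), 15 Notch genes (-0.05), 17 basement membrane genes (0.03) and 14 tight junction genes (-0.02), beside a median of 0.01 over all genes. Nuclear oxidative phosphorylation genes had a median of 0.06 with 56 of 75 positive, and immediate early genes one of 0.18 with 27 of 27 positive, with 0 called in either list. The markers of microglia had a median of 0.46 (11 of 12 tested), those of erythroid cells one of 0.98 (5 of 5) and those of astrocytes one of 0.38 (4 of 8). Few markers of the other lists, each of 8 genes, could be tested. Those of pericytes (0.35, 1 tested), fibroblasts (0.28, 1) and fenestrated endothelium (0.11, 3) were positive as well. Those of the choroid plexus (-0.65, 2 tested), smooth muscle (-0.27, 2), neurons (-0.17, 1) and oligodendrocytes (-0.05, 1) were negative. In each of these marker lists 0 were called, and their part in the other values was not tested. Sox13, at 57.8 against 76.4 CPM (-0.36), and Prdm16, an arterial transcription factor, at 42.9 against 57.9 CPM (-0.40), were among the 5 lower genes of smallest p and did not pass.

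Human NOTCH3 and mouse Notch3, receptors of mural cells, were low in these cells. Human NOTCH3 had 28 UMIs and Notch3 66 UMIs in all 4321 cells. Per mouse NOTCH3 was at 0 to 7 UMIs, and in the 1 mouse at 0, WT-TgN3 6 months replicate 1, the 3 UMIs that a count of 0 allows would make 3.01 CPM. Over all kept barcodes of the same libraries NOTCH3 stood at 16.3 to 39.9 CPM in the R182C-TgN3 mice. In the controls it stood at 2.5 to 9.76 CPM, with no overlap. The transgene was thus read in every library, at a level that differed between the genotypes. In the capillary-venous cells its 0 to 3.18 CPM do not allow a comparison of the genotypes. The part of line or transgene level in the genotype differences was not tested.

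Whether the genotype difference changed with age was tested by an interaction term, and 0 of 10252 genes passed (0.0%) with edgeR, with 293 at an unadjusted p under 0.05. Mctp1 and Lgmn were among the 5 genes of smallest p with a higher genotype difference at 9 months, and Osgepl1, Mpv17l2 and Nes among the 5 with a lower one, all with an adjusted p of 1.0.

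The genotype difference was also compared between the capillary-venous cells and the capillary gate of the same mice. Of 11082 genes 1 passed (0.00902%), with 555 at an unadjusted p under 0.05 and 0 called by DESeq2. It was Gpc6, a glypican of the cell surface that is also expressed by fibroblasts, with a log2 difference of 1.70 (SE 0.26, adjusted p = 0.00805). In R182C-TgN3 mice Gpc6 stood at 15, 23.5 and 70 CPM at 9 months and 13.6, 16.8 and 17.1 CPM at 6 months in the capillary-venous cells, and in WT-TgN3 mice at 38.2, 2.43 and 15.7 CPM at 6 months and 12 and 21.6 CPM at 9 months. In the capillary gate it ranged from 4.17 to 36.7 CPM in the R182C-TgN3 mice and from 1.42 to 62.1 CPM in the controls. The genotypes overlap in both gates, and the call rests on the ratio of the gates within a mouse. The 8 fibroblast markers summed to 54.9 to 165 CPM in the capillary gate of the R182C-TgN3 mice and to 56.3 to 528 CPM in that of the WT-TgN3 mice, with 322 CPM in the WT-TgN3 6 months replicate 3 mouse and 528 CPM in the WT-TgN3 9 months replicate 1 mouse. In the capillary-venous cells they summed to 62.5 to 157 and 78.1 to 104 CPM, with none at 0. Of the 7 fibroblast markers tested 7 had a positive log2 difference in this comparison (median 1.41) and 0 were called, and their part in the call of Gpc6 was not tested. The call of Gpc6 was lost without the WT-TgN3 9 months replicate 1 mouse, where 0 genes passed, and 2 to 6 genes passed without any of 4 other mice, the R182C-TgN3 6 months replicate 1 (2), the WT-TgN3 9 months replicate 2 (4), and the R182C-TgN3 6 months replicate 3 and WT-TgN3 6 months replicate 3 (6 each).

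Between 9 and 6 months, tested with genotype as a covariate, 30 of 10002 genes were higher (0.3%) and 38 lower (0.38%) at 9 months, with 1093 at an unadjusted p under 0.05. For 16 of the 30 and 19 of the 38 the ages did not overlap over the mice. That was counted among called genes alone and not over all genes tested, so it describes the calls and adds no support to them. Since every batch held 1 age, these are differences between ages or between batches, which cannot be told apart. Without single mice the count went from 68 to 26 (R182C-TgN3 6 months replicate 1), 30 (WT-TgN3 9 months replicate 2), 34 (R182C-TgN3 9 months replicate 1), 35 (R182C-TgN3 6 months replicate 2), 40 (WT-TgN3 9 months replicate 1) and 150 (R182C-TgN3 9 months replicate 3).

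Heat shock and immediate early genes were among the rises at 9 months. Hspa8, a chaperone of the HSP70 family, stood at 442 to 565 CPM (median 475) in the 6 mice of 6 months and at 848, 614, 781, 909 and 755 CPM in the 5 mice of 9 months. The ages did not overlap, and the log2 fold change was 0.65 (SE 0.11, adjusted p = 0.00845). Its co-chaperone Dnajb1 went from 79.8 ± 10.7 to 133 ± 27.4 CPM (0.72), Hspa1a from 87.9 to 251 CPM (1.44), Hsp90aa1 from 287 to 459 CPM (0.67) and the phosphatase gene Dusp1 from 422 to 618 CPM (0.51). These 5 are the called members of 27 immediate early and heat shock genes, and 27 of 27 were positive, with a median of 0.47 beside -0.003 over all genes. The summed level of the list ran from 12310 to 16480 CPM (median 13490) at 6 months and from 14110 to 21240 CPM (median 20980) at 9 months in these cells, and from 13340 to 21010 and 19670 to 28780 CPM in the capillary gate, so the rise was not limited to the capillary-venous cells. The part of tissue handling in these values was not tested.

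Other genes called higher at 9 months included Apold1, Acer2 and Smad7. Apold1, an immediate early gene of endothelium, went from 141 ± 12.3 to 234 ± 52 CPM (0.68), Acer2, an alkaline ceramidase, from 109 ± 8.85 to 188 ± 35.1 CPM (0.74, SE 0.12, adjusted p = 0.00845), and Smad7, an inhibitor of TGF-beta signalling, from 157 ± 10.3 to 234 ± 21.7 CPM (0.54, SE 0.09). For each of the 3 the ages did not overlap. Ankrd37, a target of hypoxia-inducible factor, went from 48.5 ± 17.3 to 111 ± 21.4 CPM (1.08), Depp1 by 1.06, Zbtb2 by 0.73, Desi1 by 0.62 and Sat1, which degrades polyamines, by 0.58. Timp3, an inhibitor of matrix proteases, went from 275 to 410 CPM (0.54) and Atf4, a transcription factor of the integrated stress response, from 116 to 169 CPM (0.52). Smad7, Ankrd37, Timp3 and Atf4 were each the only called member of the TGF-beta, hypoxia, matrix and endoplasmic reticulum stress lists.

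Among the falls at 9 months were Hist1h4h, Il31ra and Gstp1. Hist1h4h, a histone H4 gene, stood at 16.3 to 30.9 CPM (median 26.6) at 6 months and at 5.44, 10.7, 8.75, 9.71 and 11.7 CPM at 9 months, with no overlap, and fell by 1.48 on the log2 scale (SE 0.21, adjusted p = 0.00845), as Hist1h4c fell by 1.46. Il31ra, a receptor chain for interleukin 31, went from 230 ± 103 to 72.1 ± 34.3 CPM (-1.80, SE 0.27), with an overlap since the highest mouse at 9 months (125 CPM) lay above the lowest at 6 months (118 CPM). Gstp1, a glutathione transferase, went from 22.3 to 7.24 CPM (-1.74). Wdr72, Epha6, Pde6a, Kctd16 and Cntnap2 fell by 2.72 to 3.21, from 6.32 to 22.9 CPM at 6 months to 0.839 to 3.33 CPM at 9 months, and Ppp1r9a by 1.83. Of the markers of other cells tested, 4 of 4 for astrocytes (median -0.90), 5 of 5 for smooth muscle (-0.67), 2 of 2 for oligodendrocytes (-0.37) and 1 of 1 for pericytes (-0.84) were negative too, with 0 called. Other markers did not share this direction. Of 12 for microglia 8 were positive (median 0.27), as were 1 of 1 for fibroblasts (0.29) and 1 of 1 for neurons (0.095). Choroid plexus markers were 1 positive and 1 negative, and erythroid markers 2 positive and 3 negative, with 0 called in each. The 8 astrocyte markers summed to 38.6 to 145 CPM at 6 months and 24.3 to 71.9 CPM at 9 months, and the 8 smooth muscle markers to 13.5 to 56.2 and 10.3 to 37.7 CPM, none at 0, and their part in these falls was not tested. Slc22a8, Car4 and Tfrc did not pass, with Car4 at 913 ± 53.5 CPM at 6 months and 897 ± 66.8 at 9 months (-0.05, SE 0.09) and Tfrc at 628 ± 128 and 520.1 ± 96.9 (-0.30, SE 0.14). Among 23 solute carriers, 18 Wnt genes and 12 capillary zone genes 0 were called.

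**Figure D5:**
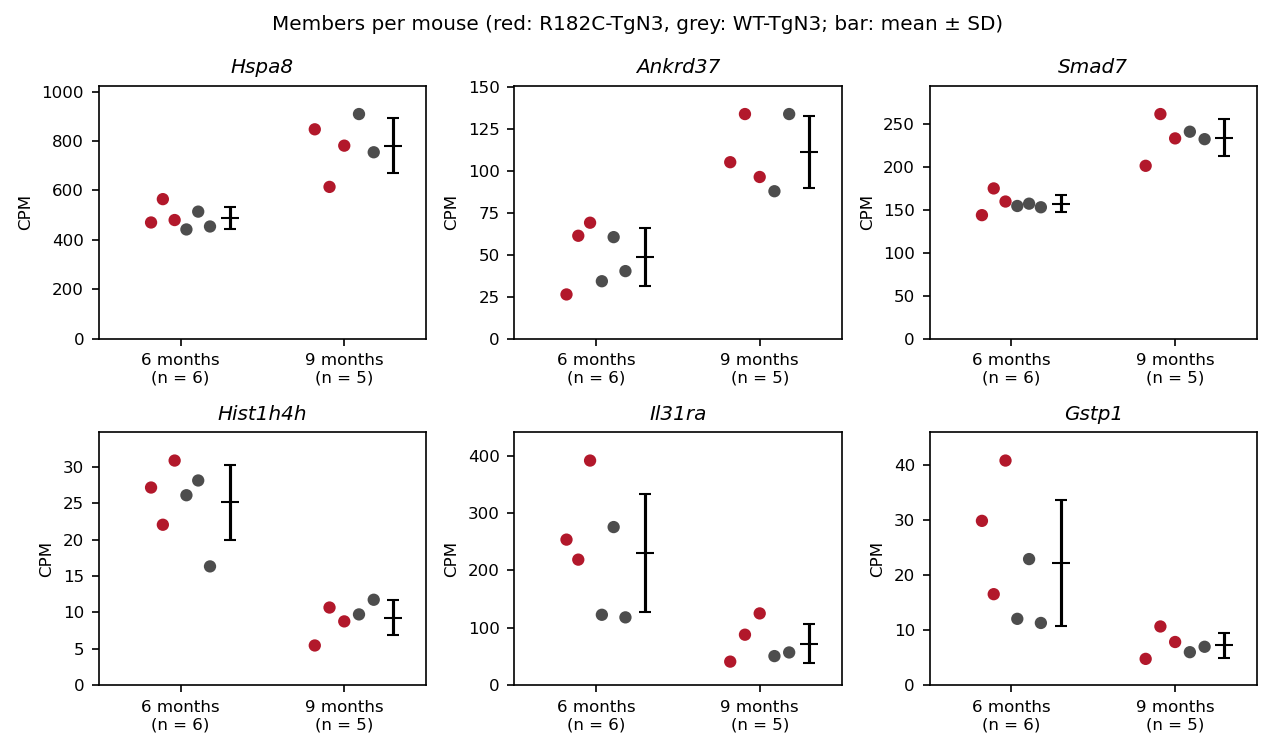
Level of 6 genes in the capillary-venous cells of each mouse (CPM) by age, with R182C-TgN3 mice in red, WT-TgN3 mice in grey and the mean ± SD of each age as a black bar. Hspa8, Ankrd37 and Smad7 are higher and Hist1h4h, Il31ra and Gstp1 lower at 9 months, and the ages overlap for Il31ra alone.

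Between the sexes, with genotype and age as covariates, 4 of 10002 genes were higher in males (0.04%) and 9 lower (0.09%), with 489 at an unadjusted p under 0.05. The 4 were the Y-linked Ddx3y, Uty, Kdm5d and Eif2s3y, and the lower ones held Xist and Tsix, the genes Kdm6a (-0.87), Kdm5c (-0.78), Eif2s3x (-0.64) and Ddx3x (-0.61), which escape X inactivation, and Pcdh11x. All 11 libraries matched their sex labels. Pcdh11x, an X-linked protocadherin gene, averaged 46.8 CPM in females and 5.51 CPM in males (-3.03, adjusted p = 7.502e-09). The remaining 2 were Pde4b, a cAMP phosphodiesterase, at 79 against 47.2 CPM (-0.73, adjusted p = 0.0183), and Ifi27l2a, an interferon-stimulated gene, at 45.1 against 20.2 CPM (-1.21, adjusted p = 0.0424).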

How the data were processed

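Cells of the brain vasculature of 11 mice were measured by droplet single-cell RNA sequencing. The authors deposited raw UMI counts per gene and called barcode, without normalization, made with Cell Ranger 7.0.0 on mm10 with human NOTCH3 added. The files hold 32287 genes and all values were whole numbers. Libraries held 17550806 to 64215050 UMIs, and the member cells of a mouse 995672 to 3190555, so genes of a few CPM rest on few UMIs. Genotype, age, sex and batch came from the labels. The member rule and the gene lists were chosen with earlier results of these data known, and 5 member barcode sequences occurred in more than 1 library.

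UMIs were summed per mouse and gate. Following the study's methods, Gm, Rik, mitochondrial and ribosomal genes were dropped and genotypes were compared without covariates. Genes passing filterByExpr were scaled by TMM and entered the quasi-likelihood test of edgeR 4.0.16 (limma 3.58.1, R 4.3.3) with Benjamini-Hochberg adjustment over all genes tested, and the SE was the log2 fold change divided by the root of F. A mouse needed at least 20 cells of a gate. Shares were compared by a 2-sided exact permutation test, with Clopper-Pearson 95% intervals, which like the floor of 3 counts cover counting error only. Likely doublets were marked with Scrublet in scanpy 1.11.5, up to 0.8% per 1000 barcodes, and kept. Scripts ran on Python 3.11.15 with pandas 2.3.3, numpy 2.4.6, matplotlib 3.10.9 and scipy 1.17.1, and the fits were tested on simulated data.

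The genes named were the marker and gate genes, NOTCH3 and Notch3, the 12 largest rises and falls between gates at 20 CPM or more that went 1 way in every mouse, up to 10 genes a direction of smallest p in the other comparisons (the 5 smallest where under 5 passed), and called or high members of each list. Alternatives were DESeq2 1.42.0 and its size factors, no filter on low counts, all genes, other thresholds (1000 genes, 5% mitochondrial UMIs, 2 or 5 UMIs of the trio), doublets removed, cells of 5000 to 10000 UMIs, covariates, 1 age or genotype alone, replicate blocks, immune barcodes left out and each mouse left out. No mouse was left out. The study left out 1 control mouse in its microglial analysis, which its text does not name.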

Additional observations from a re-analysis of the deposited data

Results flagged for a closer look

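Mouse Notch3 in the capillary-venous cells stood at 5.65 CPM, from 9 UMIs, in the WT-TgN3 6 months replicate 3 mouse, which lay apart from the other 4 control mice at 1.39 to 2.24 CPM. Chance sets a mouse apart in this way in about 1 of 20 groups, and 20 groups were examined.

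The genotype difference of Gpc6 in the capillary-venous cells differed from that in the capillary gate by 1.7 on the log2 scale (edgeR interaction term, adjusted p = 0.00805). The call rested on 1 gene of 11082, it was not made by DESeq2, and it was lost without the WT-TgN3 9 months replicate 1 mouse.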

How the results depend on the processing

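The 12 largest rises and falls named between the gates kept their direction and side of the threshold under the alternatives run. Other list members did not all do so. With cells of 5000 to 10000 UMIs, Abcg2, Slc40a1, Slc2a1, Lef1 and F5 were not called against the venous gate, Tcf7l1, Notum, Lcn2 and Lrg1 were not called against the capillary gate, and Trf, at -0.96 against the venous gate, turned to 0.19 without a call (adjusted p = 0.741). The difference in share, -0.314 percentage points, turned to 0.174 with at least 1000 genes, to 0.0463 when permuted within batches and to 0.0463 with the replicate block (exact permutation p = 1.0), and ran from -1.36 to 0.454 points with each mouse left out. The 4 genotype calls fell to 0 with a trio threshold of 2 UMIs or of 5 UMIs, with doublets removed, with immune barcodes left out (an alternative added after seeing the data), with cells of 5000 to 10000 UMIs and with 9-month mice alone, and to 2 with sex as a covariate. They ran from 0 to 4 with each mouse left out. With the replicate block, which pairs mice by age and replicate number, 6 genes passed (5 higher, 1 lower, the 4 included). The labels do not say that the numbers pair the mice, but both mice of each of the 5 pairs came from the same batch. Deviations from the genotype mean correlated across 6665 genes at 0.102, 0.115, 0.0632, -0.243 and -0.221 in the 5 pairs. These deviations also hold age and batch, and unpaired mice were not compared, so they cannot settle whether the numbers pair the mice. With no filter on low counts 51 genes passed for genotype by age, 323 for age, 100 for sex and 57 for genotype by gate. DESeq2 called 117 genes for age, of which 64 were among the 68, 1783 for capillary-venous against capillary cells and 0 for genotype by gate. Cells of 5000 to 10000 UMIs gave 1517 genes against the capillary gate, 1876 for capillary-venous against venous cells and 9 for genotype by gate, and WT-TgN3 mice alone 1669 and 2704 between gates. Genotype by gate gave 3 genes with at least 1000 genes a barcode, 8 with at most 5% mitochondrial UMIs and 0 with 5 UMIs. With each mouse left out the counts ran from 0 to 0 for genotype by age, 26 to 150 for age, 10 to 15 for sex, 2524 to 2767 against the capillary gate, 4233 to 4429 against the venous gate and 0 to 6 for genotype by gate. The causes were not tested, apart from fewer or more genes and samples by construction. Of the values of genes named for age 430 stayed on their side and 8 fell below the threshold, and for genotype 204 stayed, 32 fell below it, 11 moved and 4 passed it. Sums of a few UMIs, as for MHC class II genes in control mice and for NOTCH3, limit what can be seen at this depth.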

Other observations

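Beside Car4, Tfrc and the transporters named above as higher than in both, other genes stood higher in the capillary-venous cells than in the capillary and the venous gate. They were picked after their values were seen, from genes called in both comparisons, so their values are a description. Hmcn1, which encodes the matrix protein hemicentin 1, stood at 1477 ± 140 CPM against 906 in the capillary gate, 710 in the venous gate and 248 in the arterial gate. Ism1, a secreted protein, stood at 100.1 ± 13.2 CPM against 63.5 and 33.7, and Ddc, the enzyme that makes dopamine and serotonin, at 216 ± 23.2 CPM against 142 and 111. Ackr3, a scavenging receptor for Cxcl12, stood at 74.4 ± 16.5 CPM against 41.5 and 52.2, and the chloride channel gene Ttyh2 at 91.1 ± 17.6 CPM against 53.3, 63.1 and, in the arterial gate, 9.64. For each of these 5 genes the capillary-venous level was the highest of the 3 in 11 of 11 mice.

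F5 and Ptgis were called between the gates. F5, coagulation factor V, stood at 36.9 ± 8.16 CPM against 13.3 ± 13.2 in the capillary gate and 48.3 ± 13.1 in the venous gate (edgeR log2 fold changes 1.60 and -0.37), and Ptgis, prostacyclin synthase, at 6.6 ± 2.75 CPM against 3.54 ± 3.86 and 23.1 ± 5.16 (1.12 and -1.76). With cells of 5000 to 10000 UMIs alone F5 stood at 3.12 over the capillary gate and at -0.20 against the venous gate, where it was not called (adjusted p = 0.269 in edgeR), and Ptgis stood at -1.60 against the venous gate and gave no value against the capillary gate.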
